A study of Mus musculus with 6 samples.

Results

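The genes described here encode the parts of the sarcomere other than its myosin heavy chains. They were taken as a fixed list of 40 gene symbols, with each gene matched by symbol to a single Ensembl mouse gene row among the 52550 genes of the deposited table. All 40 were found, and 39 of them had enough counts to be compared, as had 13396 genes in all. Muscle RNA of male mice was profiled by QuantSeq, which sequences polyadenylated RNA from the 3′ end, so that a long transcript gives no more reads than a short transcript. The groups were 3 FLExDUX4 mice and 3 wild-type (WT) littermates, labelled as quadriceps muscle from animals 13 weeks old, although the methods of the paper name triceps muscle and a younger age. FLExDUX4 mice are hemizygous for a human DUX4 transgene that sits inverted in the Rosa26 locus between lox sites. No Cre driver was crossed in, and the transgene is known to leak at a very low level, so that the cells which express it are not set by a promoter of choice. DUX4 RNA was not analysed here, and the genotype of each value rests on the name of its column.

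The sarcomere is the contractile unit of striated muscle. Its thin filaments are built of actin, tropomyosin and the troponin complex, its thick filaments carry myosin with light chains and binding proteins, and titin spans from the Z-disc, which anchors the thin filaments, to the M-band at the center. Many of these proteins come as paralogs, with a fast version in the glycolytic type II fibers that fill most mouse limb muscles and a slow version in type I fibers. Some proteins at the rim of the Z-disc are known to increase when muscle is stretched or loaded.

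The values were the counts of each gene summed over the 3 mice of a genotype, 13110125 counts on genes for FLExDUX4 and 18367364 for WT. They are given as CPM, the count of a gene scaled to library size by TMM, and as the log2 ratio of FLExDUX4 to WT with a 95% interval. The table also holds values of single mice, but no label ties those columns to a genotype, and columns were not assigned by their values, so they were left out and no test between genotypes was run. A group total hides the spread between mice, so that the interval covers counting error only and a single mouse can decide a ratio. Scaling to the added ERCC and SIRV spike-in RNAs in place of TMM lowers every log2 ratio by the same amount, a shift of -0.28, so that a gene at -0.28 under spike-in scaling stands with the median of all genes. Among muscle genes used to check the tissue, Myh4 took 31026 CPM in WT and Pvalb 8116 CPM, while cardiac markers were near absent, with Myl7 and Nppb at 0 counts in both totals, Nppa at 0 and 1, Tnni3 at 4 and 0, Ryr2 at 14 and 3 and Myh6 at 13 and 19 for FLExDUX4 and WT. In whole muscle, fewer cells of a type and less RNA per cell cannot be told apart.

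The contractile genes had close to the same level in both genotypes, and the members that stood apart were of low to moderate level. Csrp3 and Ankrd2, which encode proteins of the Z-disc rim and the neighboring I-band, were at least 1.5-fold higher in FLExDUX4 mice. They were the only 2 of 39 members past that fold in either direction, against 20.1% of all genes compared, 9.93% of them higher and 10.2% lower. Of the 2727 genes with at least 1000 counts over both totals, a set chosen after the values were seen, 0.843% were higher and 0.403% lower by the same fold. At a lower limit, a log2 ratio of 0.32, Lmod2 joined them as higher and Actc1 and Mybph were lower, against 15.0% and 15.1% of all genes compared, and at 2-fold no member was called, against 5.18% and 6.45%. The median log2 ratio was -0.02 over the members and -0.001 over all genes compared. It was above 0 for 17 members and below 0 for 22, and above 0 for 3 with spike-in scaling. For 13 members the interval lay above 0 and for 19 below, against 20.5% and 20.6% of all genes compared and 24.2% and 24.8% of the genes with at least 1000 counts. An interval narrows with more counts, and neither set was matched to the members in counts. The interval excluded 0 for 15 of the 17 members with a mean of at least 1000 CPM, whose median size of the ratio was 0.05. It did so for 17 of the other 22.

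**Figure D1:**
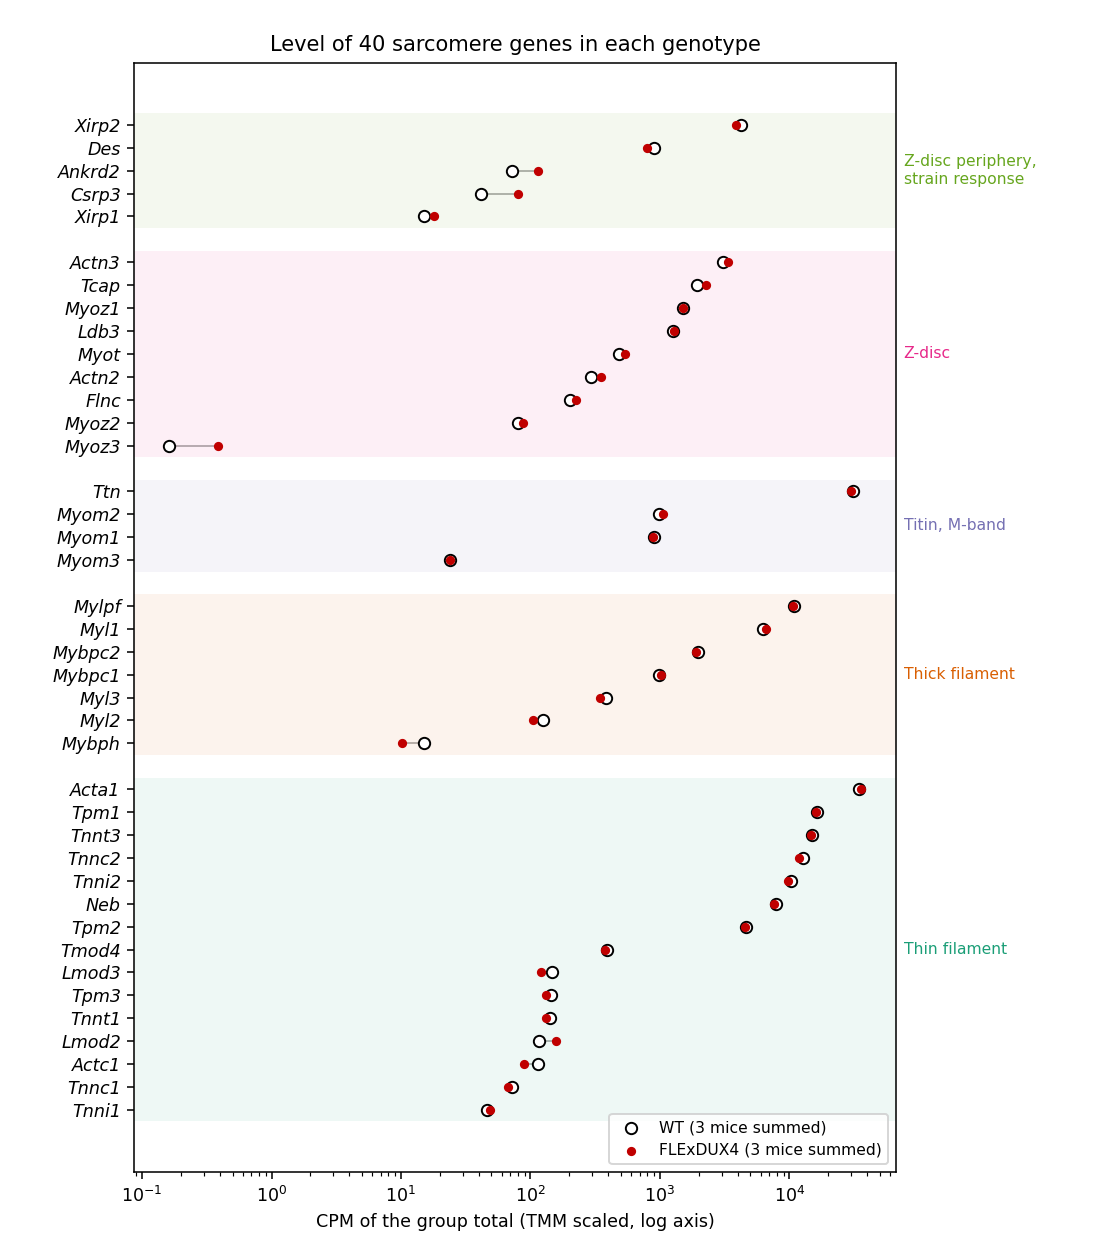
Each row is a gene and the horizontal axis is its CPM (log axis), with an open circle for the total of 3 WT mice and a red dot for the total of 3 FLExDUX4 mice, so that no error between mice can be drawn. Most circles and dots overlap, and the visible gaps are those of Csrp3, Ankrd2, Lmod2, Actc1, Mybph and of Myoz3, which had 5 and 3 counts.

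The members took 16.69% of all counts on genes in FLExDUX4 mice (Wilson interval 16.67 to 16.71) and 17.21% in WT mice (17.19 to 17.23). Thin filament genes held the largest part of this, 10.07% and 10.36%. The 17 members with a mean of at least 1000 CPM lay between log2 ratios of -0.13 and 0.23, and the other 22 compared lay between -0.57 and 0.97. The median size of the ratio was 0.05 in the first set and 0.16 in the second. Of the genes with at least 1000 counts, the 5th and 95th percentiles of the log2 ratio were -0.31 and 0.32, and 32 of the 36 members in that set fell between them. The 4 outside were Csrp3, Ankrd2 and Lmod2 above and Actc1 below, and of the 3 members with fewer counts, which are not in that set, Mybph lay below its 5th percentile and Xirp1 and Myom3 lay between the limits.

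**Figure D2:**
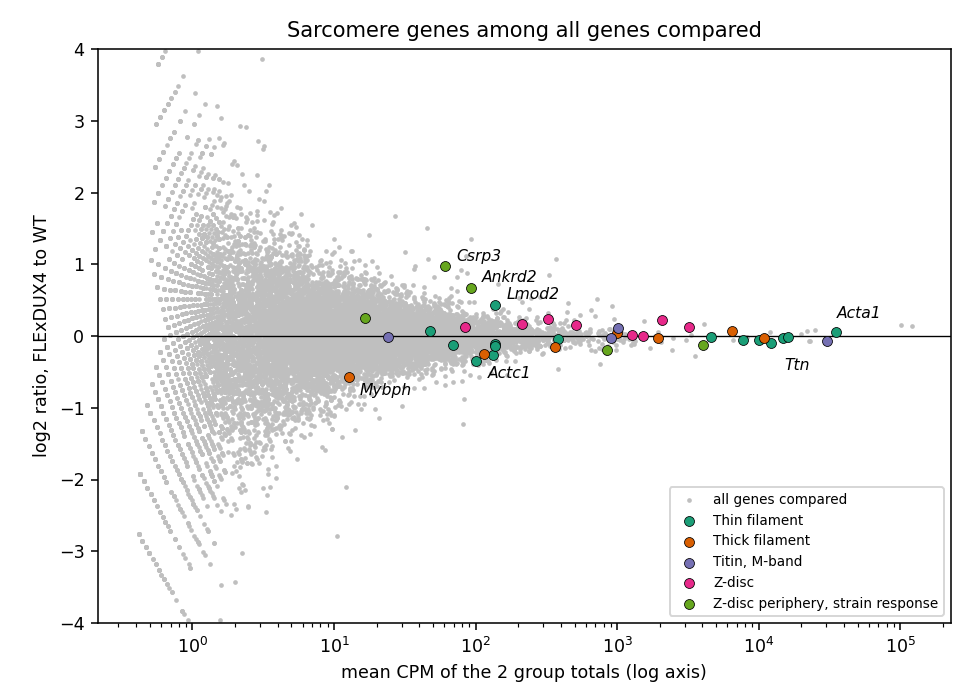
The horizontal axis is the mean CPM of both group totals (log axis) and the vertical axis the log2 ratio of FLExDUX4 to WT. Grey points are the 13396 genes compared, of which 109 lie outside the plotted range, and colored points are the 39 sarcomere genes by class. The abundant members run along the zero line, with Csrp3 and Ankrd2 at the upper edge of the genes of like level.

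The thin filament class held 15 genes, all compared, with 3 above 0, 12 below and a median log2 ratio of -0.05. Acta1 (chromosome 8 of GRCm38, 123891769 to 123894751, minus strand), which encodes the skeletal muscle actin, had 466362 counts in FLExDUX4 mice and 644116 in WT mice. That is 35944 against 34707 CPM, a log2 ratio of 0.05 (0.05 to 0.06), which was -0.23 with spike-in scaling. Its paralog Actc1 (chromosome 2, 114047282 to 114053548, minus strand) encodes the cardiac actin, which is also the actin of developing skeletal muscle. Actc1 had 1160 counts against 2104, or 89.4 against 113.4 CPM, and a log2 ratio of -0.34 (-0.45 to -0.24). The proteins are nearly identical, but whether any 3′ reads were shared between these genes was not tested. Of other genes of developing muscle, Myh3 had 36 counts against 56, a ratio of -0.11 (-0.77 to 0.51). Myh8 had 77 against 91, a ratio of 0.28 (-0.18 to 0.73). Ncam1 was at 0.20 (-0.07 with spike-in scaling), and Chrng had 0 in both totals. Myog, the only gene of that list past 1.5-fold, was higher at 50 counts against 32, few counts. That was 1 of 5 compared, against 9.93% higher of all genes compared.

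The troponin complex, which passes the calcium signal to tropomyosin, was close to even. Summed over the fast and slow paralog, troponin T genes had 14857 CPM in FLExDUX4 mice and 15103 in WT mice, with a log2 ratio of -0.02. The troponin I sum was 9873 against 10250 CPM, a ratio of -0.05. The troponin C sum, of the subunit that binds calcium, was 11922 against 12784 CPM, a ratio of -0.10 (-0.11 to -0.09). The 3 tropomyosin genes, Tpm1, Tpm2 and Tpm3, summed to 20796 against 21022 CPM. Within this sum, Tpm1 was at -0.01, Tpm2 at -0.02 and Tpm3 at -0.13 (-0.22 to -0.05). Neb, which encodes nebulin, the giant protein that runs along the thin filament, had 98867 counts against 146531 and a log2 ratio of -0.05.

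The genes for the pointed end of the thin filament differed among themselves. Lmod2 (chromosome 6 of GRCm38, 24597762 to 24605414) and Lmod3 (chromosome 6, 97238534 to 97252759) encode leiomodins, which start and lengthen actin filaments. Lmod2 had 2045 counts in FLExDUX4 mice and 2158 in WT mice, or 157.6 against 116.3 CPM, a log2 ratio of 0.44 (0.35 to 0.53) that was 0.16 with spike-in scaling. Lmod3 had 1573 counts against 2699, or 121.2 against 145.4 CPM, a log2 ratio of -0.26 (-0.35 to -0.17). Lmod2 was thus the lower of the pair in WT mice and the higher in FLExDUX4 mice: the ratio of Lmod2 to Lmod3 counts was 0.80 in WT and 1.30 in FLExDUX4 mice. This change of 0.70 on the log2 scale (0.58 to 0.83) does not depend on scaling, and the pair was chosen after its values were seen. Their sum was 278.8 against 261.7 CPM. Tmod4, a tropomodulin that caps the same filament end, had a log2 ratio of -0.05 (-0.10 to 0.01).

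The thick filament class held 7 genes, with 2 above 0, 5 below and a median log2 ratio of -0.03. The light chains stabilize the neck of the myosin head. Mylpf, the fast regulatory light chain, had 138938 counts in FLExDUX4 mice and 201958 in WT mice and a log2 ratio of -0.02. Myl1, the fast essential light chain, had 85798 against 116874 and a ratio of 0.07 (0.06 to 0.08), which was -0.21 with spike-in scaling. The slow light chains were both lower. Myl2 had 1364 counts against 2314, or 105.1 against 124.7 CPM, a log2 ratio of -0.25 (-0.34 to -0.15). Myl3 had 4441 counts against 7084, or 342.3 against 381.7 CPM, a ratio of -0.16 (-0.21 to -0.10). Myh7, the slow myosin heavy chain to which these light chains bind, had a ratio of -0.04 (-0.14 to 0.06). The count of Myh7 relative to Myl2 was 0.81 in WT mice and 0.93 in FLExDUX4 mice, a log2 change of 0.21 (0.06 to 0.35). Relative to Myl3 it was 0.26 in WT mice and 0.29 in FLExDUX4 mice, a smaller change of 0.12 (0.001 to 0.23). Both comparisons were chosen after the values were seen.

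Mybpc1 and Mybpc2 encode the slow and the fast myosin-binding protein C, which brace the thick filament. Their log2 ratios were 0.05 (0.02 to 0.08) and -0.03 (-0.06 to -0.01), and Mybpc1 was at -0.23 with spike-in scaling. Mybph (chromosome 1 of GRCm38, 134193448 to 134201232), which encodes a smaller relative, had the lowest ratio of all members compared. It had 132 counts in FLExDUX4 mice and 281 in WT mice, or 10.2 against 15.1 CPM, a log2 ratio of -0.57 (-0.88 to -0.27), just inside the 1.5-fold line. With upper quartile scaling, gene totals, spike-ins or a filter of at least 10 counts in each total, Mybph passed that line, with ratios from -0.59 to -0.85. This gene had few counts, and how far a single mouse moved its ratio was not tested.

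Titin and the myomesins of the M-band differed little. Ttn (chromosome 2 of GRCm38, 76703980 to 76982547, minus strand) had 385871 counts in FLExDUX4 mice and 578427 in WT mice, 29740 against 31167 CPM, a log2 ratio of -0.07 (-0.07 to -0.06). Myom2, the myomesin of fast fibers, was at 0.11 (0.08 to 0.15), which was -0.16 with spike-in scaling. Myom1 was at -0.03 (-0.06 to 0.005) and Myom3, with 310 counts against 447, at -0.01 (-0.23 to 0.20). The 3 myomesin genes summed to 1967 against 1906 CPM. Reads from Myom1 and from Myl12a on the opposite strand, which had 3921 counts against 4883, overlap in the annotation, and the strand setting of the counting is not given in the sources used here.

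The Z-disc class had a higher median than the filament classes. All 8 genes compared were above 0, with a median log2 ratio of 0.14 and a range from 0.002 to 0.24, and all 8 were below 0 with spike-in scaling, at a median of -0.13, where the median of all genes was -0.28. Of all genes compared, 6685 of 13396 were above 0. The classes were set with earlier results of these data known. Des (-0.19) and Xirp2 (-0.13), both below 0, were placed in the class of the Z-disc periphery. Other genes for proteins known from the Z-disc, which are no members, lay on both sides of 0. They were picked from a list of other sarcomere structure genes, with 23 of 28 compared above 0 and 5 below. All 5 below 0 are named here, and only a part of the 23 above. Pdlim5 was at 0.27, Pdlim3 at 0.11, Nrap at 0.10, Capzb at 0.10, Mypn at 0.07 and Pdlim1 at 0.05, all below 0 with spike-in scaling, and Sorbs2 was at -0.29 (-0.43 to -0.14), Synpo2l at -0.18 (-0.27 to -0.09), Pdlim7 at -0.08, Palld at -0.06 and Synpo2 at -0.05. The interval of the members lay above 0 for 6 of the 8, against 20.5% of all genes compared and 24.2% of the genes with at least 1000 counts. Neither set was matched to the class in counts. No gene of the class passed 1.5-fold, against 9.93% and 0.843% higher. Actn2, the alpha-actinin of all fibers, had 4531 counts in FLExDUX4 mice and 5490 in WT mice and a ratio of 0.24 (0.18 to 0.30), and Actn3, the alpha-actinin of fast fibers, had 43707 against 57338 and a ratio of 0.12 (0.11 to 0.14). Alpha-actinin crosslinks thin filaments in the Z-disc. Tcap, which encodes telethonin, the cap on the titin end held in the Z-disc, had 29183 counts against 35644 and a ratio of 0.23 (0.21 to 0.25). Flnc (filamin C) was at 0.17 (0.10 to 0.24) and Myot (myotilin) at 0.16 (0.11 to 0.20), which crosslink actin there.

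Myozenins tie calcineurin to alpha-actinin. Myoz1, the fast form, was even, with 19662 counts against 28087 and a log2 ratio of 0.002 (-0.02 to 0.03), and Ldb3, a PDZ and LIM protein of the Z-disc, was at 0.01 (-0.02 to 0.04). Both turned to negative values with upper quartile scaling, gene totals and a filter of at least 10 counts in each total, and Myoz1 also with no filter. Myoz2, the slow form, had 1136 counts against 1483 and a ratio of 0.13 (0.02 to 0.24). Myoz3 had 5 counts in FLExDUX4 mice and 3 in WT mice and was not compared.

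**Figure D3:**
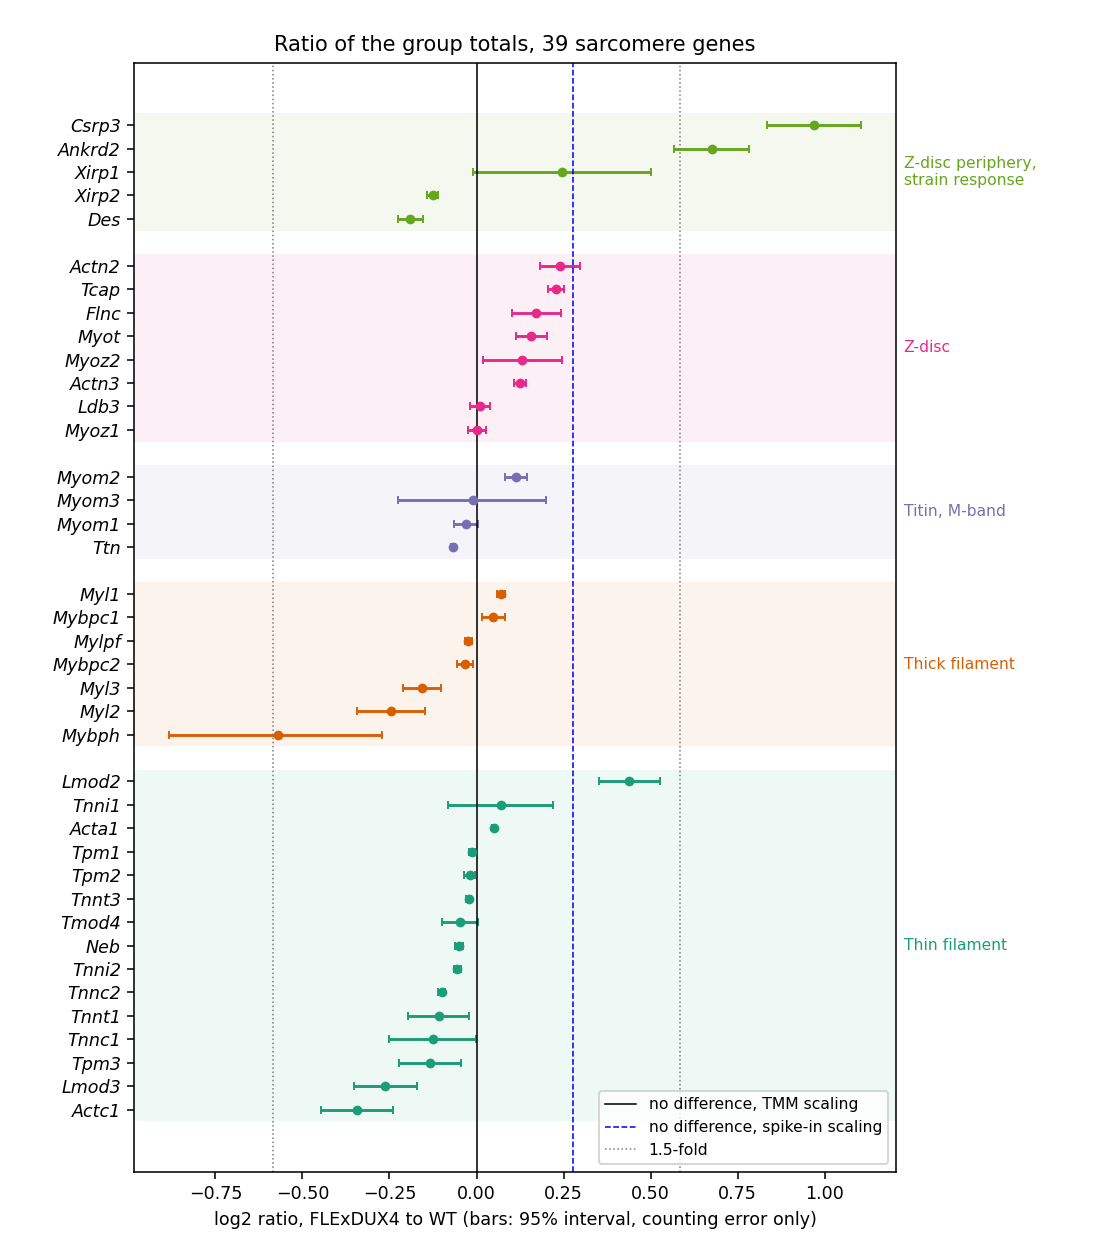
Each row is a gene, the horizontal axis is the log2 ratio of FLExDUX4 to WT totals, and bars are 95% intervals for counting error only. The black line marks no difference under TMM scaling, the dashed blue line no difference under spike-in scaling and the dotted lines 1.5-fold. All Z-disc points lie right of the black line and left of the blue line, and Csrp3 and Ankrd2 alone lie beyond the dotted line.

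The genes of the Z-disc periphery and of the response to strain had the widest range, from -0.19 to 0.97, with a median log2 ratio of 0.25 that was -0.03 with spike-in scaling. Their summed level went the other way, 4870 CPM in FLExDUX4 mice and 5250 in WT mice, since Xirp2 held most of it. Csrp3 (chromosome 7 of GRCm38, 48830398 to 48848033, minus strand) encodes muscle LIM protein, a Z-disc protein linked to the sensing of stretch. It had 1047 counts in FLExDUX4 mice and 765 in WT mice, or 80.7 against 41.2 CPM, a log2 ratio of 0.97 (0.83 to 1.11). Counts of Csrp3 were higher in FLExDUX4 mice even before scaling, although that total was the smaller. With spike-in scaling the ratio was 0.69. Of the 2727 genes with at least 1000 counts, 7 (0.26%) had a ratio at or above that of Csrp3, itself included.

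Ankrd2, on chromosome 19, encodes an ankyrin repeat protein that binds titin in the I-band and is known to increase with stretch. It had 1482 counts in FLExDUX4 mice and 1327 in WT mice, or 114.2 against 71.5 CPM, a log2 ratio of 0.68 (0.57 to 0.78). The ratio was 0.40 with spike-in scaling, which is under 1.5-fold. Of the genes with at least 1000 counts, 17 (0.62%) had a ratio at or above it. Its relative Ankrd1, which is no member, had 236 counts against 149, or 18.2 against 8.0 CPM, a log2 ratio of 1.18 (0.88 to 1.49). Ankrd23, the remaining member of that ankyrin repeat family, had 105 counts against 134 and a ratio of 0.17 (-0.22 to 0.54).

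The other 3 genes of this class lay nearer to 0 than Csrp3 and Ankrd2. Xirp1, a Xin protein that binds actin and filamin C, had 233 counts in FLExDUX4 mice and 281 in WT mice, a log2 ratio of 0.25 (-0.01 to 0.50). Xirp2, its far more abundant relative, had 50131 against 78268 and a ratio of -0.13 (-0.14 to -0.11). Des, which encodes the intermediate filament that links neighboring Z-discs, had 10292 counts against 16798, or 793.2 against 905.1 CPM, a ratio of -0.19 (-0.23 to -0.15). An annotated antisense gene over Des, Gm15179, had 481 counts against 805, and reads of both cannot be told apart without the strand setting.

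The promoters of Csrp3, Ankrd2, Lmod2 and Actc1 are shown because these were the members with at least 1000 counts that lay outside the 5th and 95th percentiles, each window running from 250 bases before to 50 bases after the RefSeq start on GRCm38.p6. Csrp3 is the start furthest upstream at chr7:48848002-48848301 (minus strand), Ankrd2 is chr19:42035777-42036076 (plus), Lmod2 is chr6:24597521-24597820 (plus) and Actc1 is chr2:114052826-114053125 (minus). Capitals mark motif matches on either strand. The motifs searched were the E-box with letters CANNTG, which myogenic factors such as MyoD bind, the motif CATTCC known for TEAD factors, the core promoter element TATAAA of the TATA box, the CArG box of serum response factor and the MEF2 site.
Csrp3: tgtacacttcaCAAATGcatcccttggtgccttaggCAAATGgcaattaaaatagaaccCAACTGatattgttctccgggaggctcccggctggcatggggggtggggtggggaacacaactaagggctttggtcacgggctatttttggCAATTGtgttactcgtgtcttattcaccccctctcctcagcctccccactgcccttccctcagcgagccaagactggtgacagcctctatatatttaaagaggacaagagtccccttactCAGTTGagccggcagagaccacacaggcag
Ankrd2: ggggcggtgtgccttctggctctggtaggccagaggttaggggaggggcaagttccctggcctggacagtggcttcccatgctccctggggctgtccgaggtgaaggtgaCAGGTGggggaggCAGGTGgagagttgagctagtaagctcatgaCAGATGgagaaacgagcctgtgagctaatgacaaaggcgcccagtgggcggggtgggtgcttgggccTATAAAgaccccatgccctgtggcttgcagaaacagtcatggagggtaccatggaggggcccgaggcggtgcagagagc
Lmod2: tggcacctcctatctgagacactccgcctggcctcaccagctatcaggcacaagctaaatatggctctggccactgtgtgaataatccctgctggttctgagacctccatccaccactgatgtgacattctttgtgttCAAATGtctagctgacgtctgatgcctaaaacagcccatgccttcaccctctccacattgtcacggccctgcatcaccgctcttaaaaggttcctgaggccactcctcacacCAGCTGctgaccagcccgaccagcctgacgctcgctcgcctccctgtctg
Actc1: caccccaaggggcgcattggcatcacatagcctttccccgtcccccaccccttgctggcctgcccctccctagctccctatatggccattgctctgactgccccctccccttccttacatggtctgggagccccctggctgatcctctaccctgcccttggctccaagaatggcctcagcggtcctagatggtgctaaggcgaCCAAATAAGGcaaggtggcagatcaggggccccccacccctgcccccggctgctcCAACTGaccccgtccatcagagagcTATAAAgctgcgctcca
The Csrp3 window held 5 E-boxes and no match to the other motifs. The Ankrd2 window held 3 E-boxes and a TATA box that begins 29 bases before the start, and the Lmod2 window 2 E-boxes. The Actc1 window held 1 E-box, a CArG box that begins 47 bases before the start and a TATA box that begins 33 bases after it. An E-box was present in 72.3% of all 32851 RefSeq promoter windows of this length, a TATA box in 13.6% and a CArG box in 1.63%.

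To compare fast with slow isoforms, 9 fast and 8 slow members were set side by side. The fast genes summed to 76636 CPM in FLExDUX4 mice and 77878 CPM in WT mice, and the slow genes to 1925 and 1970 CPM, where CPM counts 3′ ends per gene and was not divided by length. The median log2 ratio was -0.02 for fast genes, with 3 above 0 and 6 below, and -0.12 for slow genes, with 3 above 0 and 5 below. Both ranges were narrow, from -0.10 to 0.12 for the fast and from -0.25 to 0.13 for the slow genes. Without Tpm1, Tpm3 and Mybpc1, whose counts per gene need not come from a single fiber type, the medians were -0.02 and -0.12. None of the 17 passed 1.5-fold, against 0.843% higher and 0.403% lower of the genes with at least 1000 counts, a set that holds all 17.

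Within each of 10 pairs of paralogs, the ratio of the first to the second was compared between genotypes, which no scaling can move. For 6 pairs the ratio was higher in FLExDUX4 mice and for 4 it was lower. The interval excluded 0 for 7 pairs, 4 higher and 3 lower. The largest change was that of Acta1 to Actc1, whose ratio was 306 in WT mice and 402 in FLExDUX4 mice, a log2 change of 0.39 (0.29 to 0.50). For the light chains, Myl1 to Myl3 went from 16.5 to 19.3, a log2 change of 0.23 (0.17 to 0.28), and Mylpf to Myl2 from 87.3 to 101.9, a change of 0.22 (0.13 to 0.32). Tpm1 to Tpm3 changed by 0.12 (0.03 to 0.21).

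The pairs of the Z-disc and of myosin-binding protein C went the other way. Myoz1 to Myoz2 changed by -0.13 (-0.24 to -0.02), Actn3 to Actn2 by -0.11 (-0.17 to -0.06) and Mybpc2 to Mybpc1 by -0.08 (-0.12 to -0.04). The troponin pairs were split, and for all 3 the interval held 0. The troponin T pair, Tnnt3 to Tnnt1, was at 0.09 (-0.002 to 0.17). The troponin I pair, Tnni2 to Tnni1, was at -0.12 (-0.27 to 0.02). The troponin C pair, Tnnc2 to Tnnc1, was at 0.03 (-0.10 to 0.15), and Tnnc1 overlaps Nisch on the opposite strand, which had 357 counts against 847.

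**Figure D4:**
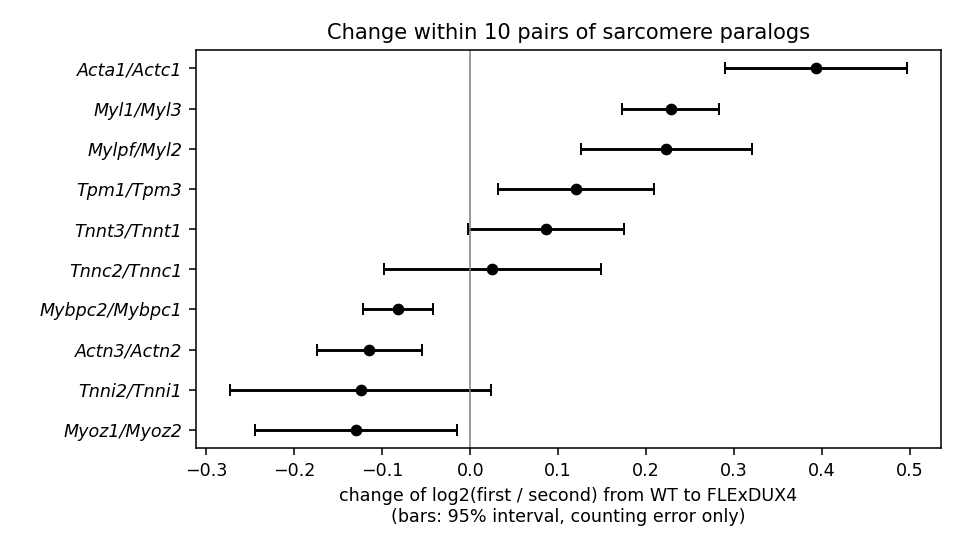
Each row is a pair of paralogs and the horizontal axis is the change, from WT to FLExDUX4 mice, of the log2 ratio of the first to the second gene, with 95% intervals for counting error only. The pairs lie on both sides of 0, from -0.13 for Myoz1/Myoz2 to 0.39 for Acta1/Actc1.

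The single slow troponin genes also lay on both sides of 0. Tnnt1 had 1710 counts in FLExDUX4 mice and 2638 in WT mice, a log2 ratio of -0.11 (-0.20 to -0.02). Tnnc1 had 863 against 1347, a ratio of -0.13 (-0.25 to -0.002), and Tnni1 had 631 against 860, a ratio of 0.07 (-0.08 to 0.22), which was -0.21 with spike-in scaling. These genes encode the slow forms of troponin T, C and I. Their fast counterparts were more abundant by over 100-fold: Tnnt3 had 191054 counts against 277657, a ratio of -0.02, with 878 counts against 1462 on Prr33 of the opposite strand, and Tnni2 had 127466 against 189368, a ratio of -0.05. Tnnc2 had 153829 against 235905, or 11856 against 12711 CPM, and the lowest ratio of the fast genes, -0.10 (-0.11 to -0.09). The general markers of fiber type lay in the same narrow range, with Myh2 at -0.04 (-0.07 to -0.01), Myh4 at -0.07 (-0.07 to -0.06), Atp2a1 at -0.02 and Atp2a2, the calcium pump of slow fibers, at 0.07 (-0.02 to 0.16). Myh1, the heavy chain of type IIx fibers, was at -0.19 (-0.21 to -0.17).

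Of 31 other genes of sarcomere structure, 28 were compared, with 23 above 0, 5 below and a median log2 ratio of 0.11, which was -0.17 with spike-in scaling. Ankrd1, Fhl2 and Obsl1 were past 1.5-fold and higher, 3 of 28 against 9.93% of all genes compared, a share near that background. The 5 below 0 were Sorbs2, Synpo2l, Pdlim7, Palld and Synpo2. Fhl2, a LIM protein, had 34 counts in FLExDUX4 mice and 28 in WT mice, a ratio of 0.79 (0.03 to 1.57), and Obsl1, a relative of obscurin, had 61 against 57, a ratio of 0.61. Both rest on few counts. Of 17 genes for sarcomere assembly and turnover, 8 were above 0 and 9 below, the median was -0.03 and none passed 1.5-fold, against 9.93% higher and 10.2% lower of all genes compared and 0.843% and 0.403% of the genes with at least 1000 counts. Their range ran from Hspb8, a small heat shock protein that works with Bag3 on damaged filaments, at -0.38 (-0.47 to -0.28) to Trim63, a ubiquitin ligase that acts on thick filament proteins, at 0.37 (0.29 to 0.45).

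Markers of other cells that muscle samples hold moved as follows, and their part in the results above was not tested. Fibroblast markers were above 0 for 6 of 6 genes, with a summed level of 1737 CPM in FLExDUX4 mice and 1519 in WT mice, and blood markers were above 0 for 5 of 5, with 1279 against 1020 CPM. Adipocyte markers were above 0 for 5 of 6, with 383.8 against 303.0 CPM, and Cfd (1468 counts against 1144) and Adipoq (294 against 258) were higher past 1.5-fold, 2 of 6 against 9.93% of all genes compared, while Lep had 12 counts against 31, a log2 ratio of -0.82. Of 4 leukocyte markers compared, 1 was above 0, with 48.3 against 49.8 CPM. Of 5 endothelial markers 2 were above 0, with 172 against 189.5 CPM. Vwf (243 counts against 212) was higher and Tek (80 against 178) lower past 1.5-fold. That was 1 of 5 in each direction, against 9.93% higher and 10.2% lower of all genes compared. Of 5 Schwann cell markers 3 were above 0, with 148.7 against 141.1 CPM. Of 6 smooth muscle markers 5 were above 0, Des being the other, with a summed level of 880.5 against 975.3 CPM that Des dominates. Among the 5, Acta2 had 592 counts against 651. Cnn1 had 30 counts against 12, few counts, and was higher past 1.5-fold, 1 of 6 against 9.93% of all genes compared. Of 5 markers of regenerating or developing muscle compared, 3 were above 0 and 2 below, with 109.6 against 129.6 CPM, most of it Actc1, and Myog had a log2 ratio of 1.15 (0.49 to 1.85). Skeletal muscle markers were even, with 3 of 10 above 0 and 64783 against 65930 CPM.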

How the data were processed

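Per the labels and the methods of the paper, reads were trimmed with cutadapt 1.16, aligned with STAR 2.5.3a to a GRCm38 reference extended by the ERCC and SIRV spike-ins, and counted with featureCounts 1.6.2. The deposited counts are raw counts per gene that the authors summed over the 3 mice of a genotype. The table also holds 6 further value columns, each for a single sample, whose numbering no label explains and which entered no step, and the authors' fold changes and p-values from DESeq2, also not used. The planned test by edgeR on values per sample was not run, since no label ties those columns to a genotype.

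The filterByExpr function of edgeR 4.0.16, run in R 4.3.3, kept 13396 genes, and TMM scaling of both totals rested on these. The log2 ratios used a pseudocount of 0.5 on the counts, and the intervals are 95% Clopper-Pearson intervals (scipy 1.17.1 in Python 3.11.15), or normal intervals of the log ratio for pairs and Wilson intervals for shares. They cover counting error only, since a group total holds no spread between mice. As 3′ reads without molecular identifiers are not independent molecules, the intervals can be too narrow even for counting error. A gene was called past 1.5-fold where its interval also excluded 0. Every member was named, and of the other lists the genes called and those needed beside a member. The members and lists were chosen with earlier results of these data known. Gene positions are from a GENCODE annotation on GRCm38, and were given for genes with an identical start in the deposited table. RefSeq promoter windows matched 29 of 40 members.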

Additional observations from a re-analysis of the deposited data

How the results depend on the processing

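No paired analysis was possible because no label ties the columns of single mice to a genotype or a shared number. The columns were not assigned by their values, and so DESeq2, leaving out each replicate and the replicate block were not run. RLE scaling, TMM without the sarcomere genes and a pseudocount of 1 changed the sign of none of the 39 members. Upper quartile scaling, gene totals and at least 10 counts in each total changed the sign of 2 (Ldb3 and Myoz1), no filter of 1 and spike-in scaling of 14. Under spike-in scaling every log2 ratio moved by -0.28, so that the medians were -0.296 for all members, -0.327 for thin filament, -0.31 for thick filament, -0.296 for titin and M-band, -0.131 for Z-disc, -0.029 for Z-disc periphery, -0.299 for fast and -0.393 for slow genes. The fast median was -0.039 with upper quartile scaling, -0.053 with gene totals and -0.037 with at least 10 counts in each total.

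The 2 members past 1.5-fold and higher became 1 (Csrp3) with spike-in scaling and 0 at 2-fold. The 0 that were lower became 1 (Mybph) with upper quartile scaling, gene totals and at least 10 counts in each total, 2 (Mybph and Actc1) with spike-in scaling, and 2 (the same genes) at a log2 limit of 0.32. The shares of counts on members were 16.42% in FLExDUX4 and 16.97% in WT mice with spike-ins in the total. The changes within pairs moved by less than their intervals with a pseudocount of 1. Genes with few counts, such as Mybph, Xirp1 and Myom3, had wide intervals.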

Other observations

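RefSeq promoter windows were held for 29 of the 40 members, in 35 windows, since some genes have more than 1 start. A CArG box was found in 6 of the 35 (17.1%), in Acta1, Actc1, Ldb3 (at 2 starts that overlap), Myl3 and Myom1, and in 1.63% of all 32851 windows. A MEF2 site was found in 4 (11.4%), in Myom3, Myoz2, Ttn and Xirp2, and in 3.19% of all. The motif CATTCC was found in 28.6% of the 35 against 14.7% of all, a TATA box in 20.0% against 13.6%, and an E-box in 88.6% against 72.3%. These are matches of letters in a window, given as a description. The members with a CArG box had log2 ratios on both sides of 0, from -0.34 for Actc1 to 0.05 for Acta1.

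Ttn ranked 4th and Acta1 3rd among all genes by WT counts, although a titin transcript is far longer than an actin transcript. The longest annotated coding transcript of Ttn is 106824 bases and that of Acta1 is 1446 bases. Runs of at least 10 A were found 2 times in the Ttn transcript before its last 50 bases and 0 times in that of Acta1. Over the 39 members compared, the log2 CPM in WT and the log2 length of the longest transcript had a Pearson r of 0.18, across genes that share a library.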
